A study of Drosophila melanogaster with 4 samples.

Results

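The accessory gland proteins (Acps) are proteins that the paired accessory glands of the male fruit fly secrete into the seminal fluid. Their genes were chosen by symbol, as spots annotated with a single gene symbol that starts with Acp and a digit, with the cuticle gene Acp65Aa left out. On the 12k design this gave 5 genes on 12 of 27648 spots, out of 6793 named genes. They are Acp32CD, Acp36DE, Acp53C14a, Acp53Ea and Acp1. Acp1 shares the letters only: it encodes an adult cuticle protein and carries the synonym Dacp-1 in RefSeq, so it is described apart, and the other 4 genes on 10 spots are called the Acp genes here. The RefSeq table holds 17 symbols of this form without Acp1, of which these 4 could be measured one by one. A further 2 spots on each design carry several symbols, at least one of them an Acp symbol, and were left out. On the pilot 7k design the rule found 2 genes, Acp36DE and Acp53C14a, on 6 of 16896 spots.

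The flies were whole adult males of the strain dp cn bw cl, aged 6 to 7 days after eclosion. The cold-shocked males spent 2 h at 0 ± 0.5 °C and then 30 min at 25 °C before freezing, and the co-reared untreated males stayed at 25 °C in the treatment vessel. The 12k design was used for 3 arrays, one for each independent pair of samples, with cold-shocked RNA in Cy5 and untreated RNA in Cy3, and 1 pilot array of the 7k design carried the dyes the other way round. A value is the authors' log ratio of the channels at a spot, taken as log2. On the 12k arrays a positive value is likely higher in cold-shocked males, because the usual conventions by dye, by channel and by treatment all point that way, but the sources used here do not state it.

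Seminal fluid proteins pass to the female at mating, where they raise egg laying, lower her readiness to mate again and help to store sperm. They are made almost wholly in the male reproductive tract and their genes are among the most strongly expressed of the gland's main cells. Flies were frozen whole, so their transcripts were read against those of the whole body, and fewer gland cells cannot be told apart from less RNA per gland cell. The arrays give ratios and no level, so how strongly each Acp gene was expressed was not measured. No spot could be judged against background for want of channel intensities.

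The Acp genes gave small ratios of mixed sign. Acp53Ea, Acp53C14a and Acp32CD had mean log2 ratios a little above 0 and Acp36DE one a little below 0, and each gene stood on both sides of 0 across the 3 arrays. Of the 4 genes, 0 had a limma adjusted p under 0.05, and 0 had an unadjusted p under that value. Over all 19325 features 0 passed as well (0%), with 924 (4.78%) under an unadjusted p of 0.05. The count over the Acp genes therefore equals the background.

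Acp53Ea encodes a small secreted protein of the gland. Its mean per array was 0.40, 0.35 and −0.24 on arrays 1 to 3. The single spots read 0.54 and 0.26 on array 1, 0.28 and 0.43 on array 2, and −0.33 and −0.14 on array 3. Both spots were thus above 0 on arrays 1 and 2 and below 0 on array 3, with no overlap between array 3 and the others. The mean log2 ratio was 0.17 ± 0.35 (SD, n = 3), a 1.13-fold ratio, with a limma adjusted p of 0.914.

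Acp53C14a is a paralogue of Acp53Ea. In the RefSeq table of Release 6 the genes Acp53C14a, Acp53C14b, Acp53Ea and Acp53C14c lie in this order with no other protein-coding gene between them. Acp53C14a had log2 ratios of 0.49, 0.03 and −0.06 on arrays 1 to 3, and its spots differed by only 0.04, 0.17 and 0.08 on these arrays. Array 1 was the only one on which both spots stood clearly off 0, at 0.51 and 0.47. The mean was 0.15 ± 0.29 (SD, n = 3), with a limma adjusted p of 0.920. Across the cluster, both measured genes were highest on array 1 and lowest on array 3, and on array 2 only Acp53Ea was high. Acp53C14b and Acp53C14c had no spot of their own among the named ones. Cross-hybridization between the paralogues was not tested.

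Acp32CD, another secreted gland protein gene, was low on array 1, where both measured Acp53 genes were highest. It was high on the other arrays, as Acp53Ea also was on array 2 (0.35). Its log2 ratio was −0.34, 0.34 and 0.39 on arrays 1 to 3. One spot gave −0.69, 0.47 and 0.70 and its printed partner −0.0018, 0.21 and 0.09, so the second spot stayed near 0 where the first did not. Spots with consecutive numbers, odd then even, are called printed pairs here, and the difference within this pair, 0.68 on array 1 and 0.60 on array 3, lay at the 80.6 and 67.6 percentiles of all 7558 named pairs. The mean was 0.13 ± 0.41 (SD, n = 3), with a limma adjusted p of 0.933.

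Acp36DE encodes a large glycoprotein that mated females need for efficient sperm storage. It has 4 spots in 2 printed pairs. The first pair averaged −0.95, −0.04 and 0.15 on arrays 1 to 3 and the second 0.44, −0.17 and 0.30. On array 1 the pairs lay on opposite sides of 0, each with close agreement inside the pair, at −1.002 and −0.90 against 0.40 and 0.48. On arrays 2 and 3 the pair means differed by 0.13 and 0.15.

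The gap between the Acp36DE pairs on array 1 was 1.39 in log2, at the 93.0 percentile of the 687 named genes with several printed pairs, for which the median gap was 0.44. The gene's mean over all spots was −0.26, −0.10 and 0.22 on arrays 1 to 3. This gave a mean log2 ratio of −0.04 ± 0.24 (SD, n = 3) and a limma adjusted p of 0.977. That small mean on array 1 is an average of a pair well below 0 and a pair well above it. Over the 3 arrays the first pair averaged −0.28 ± 0.59 and the second 0.19 ± 0.32 (SD, n = 3).

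**Figure D1:**
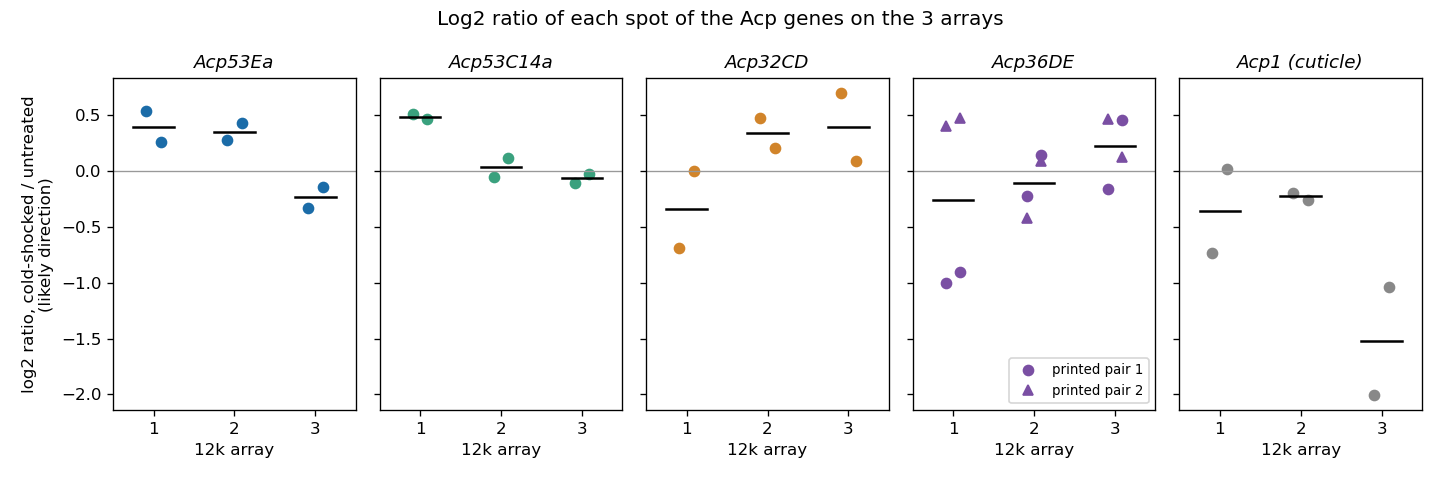
Each panel plots the log2 ratio of cold-shocked over untreated males (likely direction) at every spot of one gene on 12k arrays 1 to 3, with circles and triangles for the first and second printed pair and a black bar for the gene's mean on that array. The Acp53 genes are highest on array 1, Acp32CD is lowest there, and the pairs of Acp36DE split on array 1 into −0.95 and 0.44.

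The order of the means was Acp53Ea, Acp53C14a, Acp32CD and Acp36DE, and no neighbours in it differed beyond their spread. Within arrays, Acp53Ea minus Acp53C14a averaged 0.02 ± 0.26 in log2, Acp53C14a minus Acp32CD 0.02 ± 0.70, and Acp32CD minus Acp36DE 0.17 ± 0.27 (SD, n = 3 each). The ends of the order, Acp53Ea and Acp36DE, differed by 0.22 ± 0.59 (SD, n = 3). Similar means hid different patterns: Acp53C14a exceeded Acp32CD by 0.83 on array 1 and differed from it by −0.31 and −0.46 on arrays 2 and 3.

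The precision of each mean is given here by an interval for that gene alone, without adjustment for the 19325 features tested. limma's 95% interval for the log2 ratio ran from −0.41 to 0.75 for Acp53Ea and from −0.41 to 0.71 for Acp53C14a. It ran from −0.47 to 0.73 for Acp32CD and from −0.59 to 0.50 for Acp36DE. On the linear scale the highest upper bound was 1.68-fold higher, for Acp53Ea, and the furthest lower bound 1.51-fold lower, for Acp36DE. Each of these intervals held both signs, so with 3 arrays none of these means could be told apart from no difference. The bounds are not limits of detection. The female gene Yp1, with an interval from −3.81 to −1.47, still had a limma adjusted p of 0.853.

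Set among the 6793 named genes, the 4 Acp genes were ordinary in size. Their absolute mean ratios lay at the 47.5 percentile for Acp53Ea, 43.2 for Acp53C14a, 37.4 for Acp32CD and 12.8 for Acp36DE. Their spread over the arrays was ordinary too, with the SD at the 52.9, 42.1, 61.9 and 32.1 percentiles in the same order. No Acp gene had one sign on all 3 arrays, where 1997 of the 6793 named genes had (29.4%). The median of the 4 means was 0.14 and the median over all named genes −0.05.

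Single arrays put individual Acp genes further out. On array 1 Acp53C14a and Acp53Ea lay at the 95.2 and 91.9 percentiles of the named genes, and on array 3 they lay at 42.7 and 28.2. Acp32CD lay at the 30.7 percentile on array 1 and at 84.1 and 81.1 on arrays 2 and 3. Of the 30 spot values of the 4 genes, 18 were above 0 and 12 below, from −1.002 to 0.70. Past a fold of 1.5 were 4 of these 30 values (13.3%), against 25.4% of all spot values on the 3 arrays. The arrays themselves correlated weakly across the named genes, with a Pearson's r of 0.0878, 0.0983 and 0.0782 for the 3 pairs of arrays, and genes are not independent replicates.

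The median of the spots within 50 positions on either side, in the order of spot numbers, was also subtracted from each Acp spot. Whether that order follows position on the array was not tested. After that subtraction the mean log2 ratio was 0.17 for Acp53Ea, −0.01 for Acp53C14a, 0.19 for Acp32CD and −0.04 for Acp36DE. Acp53C14a thereby changed sign: its spots stood among others with medians of 0.0800 on array 1, 0.25 on array 2 and up to 0.17 on array 3. Acp32CD on array 1 moved to −0.04, because the spots around it had a median of −0.30. The first Acp36DE pair on array 1 had neighbours at −0.32 and the second neighbours at 0.12. After subtraction the first pair read −0.68 and −0.58 and the second 0.29 and 0.36, so the gap between the pairs was 0.95, against 1.39 as deposited. On arrays 2 and 3 the second pair minus the first was −0.32 and 0.55 after subtraction, against −0.13 and 0.15 as deposited. The part of array position in this gap was not tested.

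**Figure D2:**
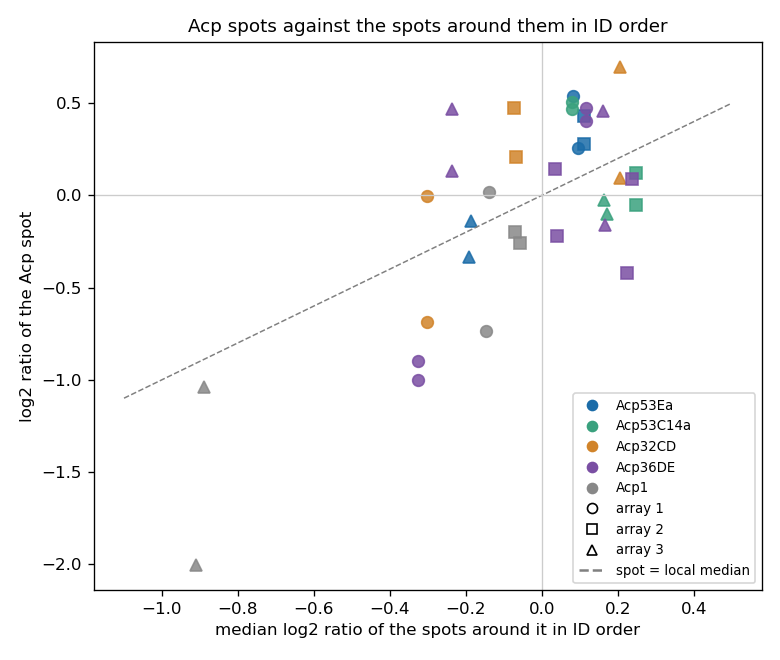
The log2 ratio of each Acp spot (vertical axis) is plotted against the median log2 ratio of the spots around it in ID order (horizontal axis), with one colour per gene and one marker shape per array. Spots on the dashed line equal their surroundings, and the Acp1 spots on array 3 are at the far left, among spots with medians near −0.91 and −0.89.

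Acp1, the cuticle gene that the symbol rule also takes in, was the one gene of the 5 below 0 on all 3 arrays, as 16.9% of the named genes were. Its log2 ratio was −0.36, −0.23 and −1.52 on arrays 1 to 3, with a mean of −0.70 ± 0.71 (SD, n = 3) and a limma adjusted p of 0.853. Array 3 held the lowest values, −2.01 and −1.04 at the 2 spots. The spots around them on that array had medians of −0.91 and −0.89, and with local medians subtracted the mean was −0.33 ± 0.25 (SD, n = 3). Without array 3 the mean was −0.29.

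A list of 75 seminal fluid genes, the 4 Acp genes among them, had 10 measured members. Of these 0 passed the limma test, 0 had an unadjusted p under 0.05, and 0 had one sign on all 3 arrays. Over all 19325 features 0 passed (0%) and 4.78% had an unadjusted p under 0.05. One sign on all 3 arrays was found for 29.4% of the named genes. The means of the 10 measured members were above 0 for 6 and below 0 for 4, where 57.0% of all named genes had a mean below 0. The median of these 10 means was 0.06, against −0.04 over all 19325 features. The list median per array was 0.19, −0.02 and −0.04 on arrays 1 to 3. The 6 members outside the Acp genes ranged from −0.12 to 0.33.

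Among proteases of the fluid, CG9997, a serine protease homologue needed for the long-lasting response of females to sex peptide, had log2 ratios of 0.62, 0.39 and −0.02 on arrays 1 to 3. Its order over the arrays was that of Acp53Ea. Semp1, a metalloprotease that takes part in cutting other seminal proteins, had 0.26, 0.16 and −0.06 in the same array order. Both were high on array 1 and slightly below 0 on array 3. The protease homologue gene intr read 0.37, −0.07 and −0.66 on the arrays, and the serpin gene Spn38F, of a family of protease inhibitors, read −0.28, −0.43 and 0.71. Of the remaining members, CG17575, a cysteine-rich secretory protein gene, had a mean of −0.12 ± 0.44 and BG642312 one of −0.04 ± 0.14 (SD, n = 3 each). Of the ejaculatory duct and bulb genes, 1 of 8 was measured, Gld, which encodes glucose dehydrogenase, at −0.02 ± 0.29 (SD, n = 3).

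The sex peptide response list joins male proteins with female ones that carry the response, and 7 of its 14 members were measured. SPR, the receptor for sex peptide, was below 0 on all 3 arrays at −0.67, −0.73 and −0.19, with a mean of −0.53 ± 0.30 (SD, n = 3) and a limma adjusted p of 0.853. It did not pass the test, and 16.9% of the named genes were likewise below 0 on every array. Esp, hdly and frma, which act in females in this pathway, had means of 0.26 ± 0.28, −0.04 ± 0.21 and −0.11 ± 0.15 (SD, n = 3 each). Esp read 0.39, 0.45 and −0.07 on arrays 1 to 3, and its mean was 0.16 without array 2 and 0.42 without array 3. Over the list 0 members passed, as did 0 of all 19325 features.

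Of 4 genes that set up the gland or the male state, 2 were measured. The sex determination gene dsx was below 0 on all 3 arrays, as 16.9% of the named genes were. It read −0.50, −0.26 and −0.66, with a mean of −0.47 ± 0.21 (SD, n = 3). The gene prd, needed for accessory glands to form, read −1.73, 0.31 and −0.70, with a mean of −0.71 ± 1.02 (SD, n = 3), with −0.19 without array 1 and −1.22 without array 2. Neither passed: the limma adjusted p was 0.853 for both genes.

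**Figure D3:**
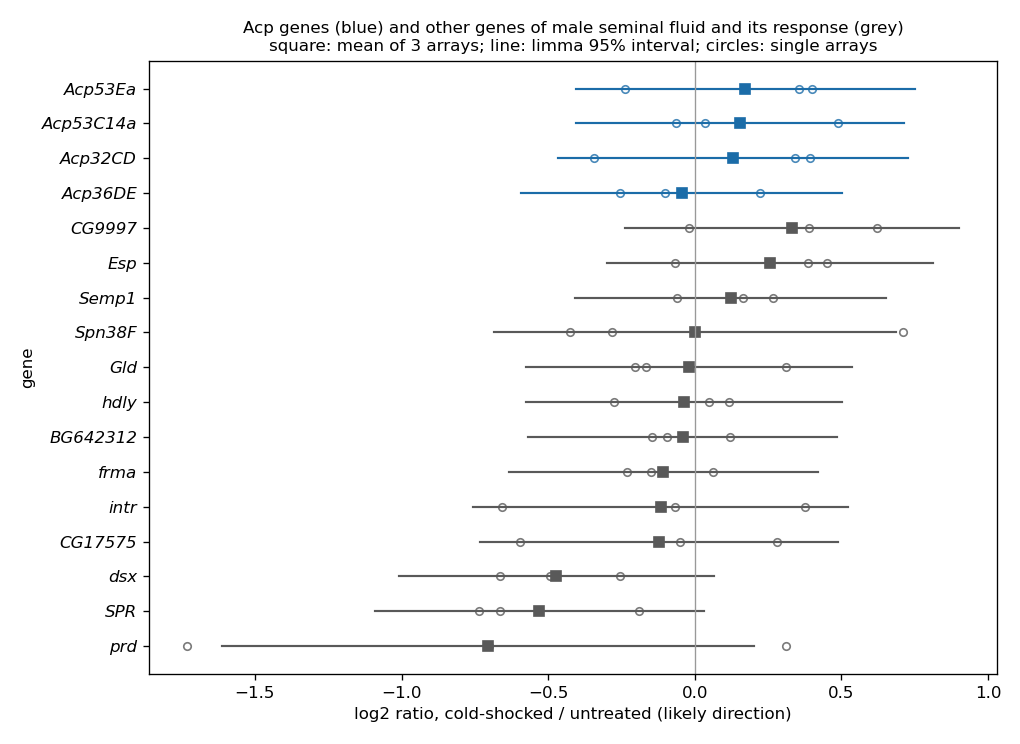
Rows are the Acp genes (blue) and the other measured genes of the seminal fluid, duct, sex peptide response and gland identity lists (grey), with squares for the mean log2 ratio of 3 arrays, lines for limma's 95% interval and circles for single arrays. Every interval includes 0, and dsx and SPR are the only genes with all circles on one side of it.

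Markers of other sexual tissues were read beside these. Of 38 testis genes 14 were measured, with 6 means above 0 and 8 below and a median of −0.05, and dj, Prosalpha4T1 and S-Lap7 had the largest means in size, at 0.32, −0.62 and 0.23. Of 19 female genes 9 were measured, 7 with means below 0, beside 57.0% of all named genes, and Yp1, dhd and Yp3 stood at −2.64, −2.38 and −0.99. The medians of the female list were −0.88, −0.45 and −0.10 on arrays 1 to 3, while those of the 4 Acp genes were 0.07, 0.19 and 0.08. The part of female transcripts in the Acp ratios was not tested.

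Named genes outside the Acp rule were ranked by the Euclidean distance of their 3 log2 ratios to those of each Acp gene. The 5 nearest to each came from no list used here. For Acp53Ea they were Pomp, CG11883, CG6283, Iris and CG10466, at distances of 0.0211 to 0.0621. For Acp53C14a they were CG12942, PolA1, CG17300, H and CG2818, at 0.0307 to 0.0827. For Acp32CD they were Kpc1, CG2790, CG8135, CG6966 and Fgop2, at 0.0591 to 0.0930, and for Acp36DE they were Alp9, D1, CG6171, CG1239 and ifc, at 0.0282 to 0.0687. Looser matches are common at 3 arrays: 726 of the ranked genes lay within a distance of 0.5 of Acp53Ea and 1904 within it of Acp36DE. That limit is wider than the distances above, and genes as close as those named were not counted.

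The pilot array held Acp36DE and Acp53C14a. Its direction is not settled, since the dye and channel conventions disagree for it, and it has no replicate, so its values are printed as deposited, and the opposite reading would turn every sign. Acp36DE read −0.74 and −0.98 at its 2 spots, while the median over the array was 0.40. Its mean of −0.86 had 19 of the 2377 named genes below it, which is the 0.799 percentile, or the 99.2 with the sign turned. Acp53C14a read −0.0021, −0.02, −0.03 and −0.11 at its 4 spots in 2 printed pairs, all below the array's median, with a mean at the 23.3 percentile.

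Relative to the pilot's median, the mean of Acp36DE was −1.26 and that of Acp53C14a −0.44. With the local median subtracted they were −1.64 and −0.45. Acp36DE was therefore far from the centre of the pilot array at both spots. On the 12k arrays, only its first printed pair on array 1 reached the size of the pilot values as deposited. With local medians subtracted that pair read −0.68 and −0.58, against −1.54 and −1.74 at the pilot spots. Whether the pilot spots carry the same clone as either 12k pair is not given in the sources used here. Among other genes of the fluid, CG9997 and Spn38F had pilot means of 0.38 and −0.06, and dsx and prd 0.40 and 1.00.

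**Figure D4:**
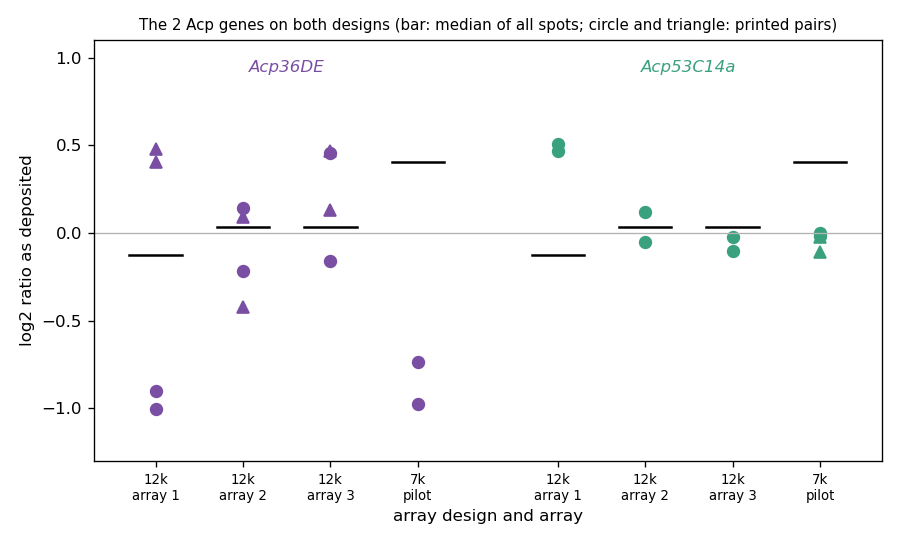
Log2 ratios as deposited are plotted for the spots of Acp36DE (purple) and Acp53C14a (green) on 12k arrays 1 to 3 and on the 7k pilot, with circles and triangles for the first and second printed pair and a black bar for the median of all spots of the array. Acp36DE lies at −0.74 and −0.98 on the pilot, below a median of 0.40, and the direction of the pilot ratio is not settled.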

How the data were processed

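RNA from whole males was compared on 2-colour cDNA arrays, 3 of the 12k design and 1 pilot of the 7k design. The deposited values, taken here as log2 ratios, hold a ratio of the channels for each spot that the authors computed after normalization, per the labels. The sources used here do not give the image analysis, background correction, normalization or spot filters. The log base is not stated and 2 was chosen, because values reached −14.57 while the natural log of a 16-bit range is 11.09, which assumes channel values of at least 1. All folds depend on this. Depth is not defined for arrays, and precision is limited by their number.

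Spots were named through the platform annotation, which gave 15116 of 27648 12k spots 1 symbol, 102 several and 12430 none, and symbols were updated by gene identifier in the RefSeq Release 6 table, where 14894 matched. On the 7k design 5666 spots had 1 symbol, 152 several and 11078 none. The arrays' genome build is not given in the sources used here, so no coordinates are printed, and sequences were not analysed here. Spots of a gene were averaged within an array and unnamed spots kept singly. In R 4.3.3, limma 3.58.1 (lmFit, then eBayes) gave a two-sided test of the mean of 3 arrays against 0, adjusted by Benjamini-Hochberg over all 19325 features, with 2 residual and 4.99 prior degrees of freedom. The fit was tested on simulated data with added changes far larger than the Acp means, so that test does not bear on ratios of their size. An exact two-sided sign-flip test of 3 arrays cannot go below 0.25. One dye orientation on all 12k arrays means that dye and treatment cannot be told apart. The replicates are independent biological pairs, per the series' design text.

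Genes named are the Acp genes, the measured members of the seminal fluid, duct, sex peptide and gland identity lists, the 3 largest of the testis and female lists, and the 5 nearest genes by distance. The members and lists were chosen with earlier results of these data known.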

Additional observations from a re-analysis of the deposited data

How the results depend on the processing

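Alternatives were array centring, local median subtraction, the median of a gene's spots, every spot as its own feature, scaling of the arrays, named genes only, and leaving out each array. Under all of them 0 features passed limma's test, 0 seminal fluid genes passed, and Acp53Ea and Acp1 kept their sign. The means of these genes could not change with the median of spots, every spot as its own feature or named genes only, by construction. Acp53C14a reversed with local medians subtracted, to −0.0121. Without one array the mean log2 ratio ranged from −0.00187 to 0.367 for Acp32CD, from −0.179 to 0.0606 for Acp36DE, from −0.0141 to 0.262 for Acp53C14a, from 0.0589 to 0.376 for Acp53Ea and from −0.941 to −0.293 for Acp1. Of these, Acp36DE reversed without array 1 (0.0606), Acp53C14a without array 1 (−0.0141) and Acp32CD without array 3 (−0.00187). The median of the seminal fluid list ranged from 0.0551 to 0.0915 without one array and was −0.00338 with local medians subtracted. The causes were not tested. On the pilot, Acp36DE at −0.858 became 0.858 with the sign turned and −1.26 with the array median subtracted, and Acp53C14a at −0.0375 became 0.0375 and −0.442, by construction. Both samples of a 12k pair share an array and enter as 1 ratio, so the test of the mean ratio against 0 already uses the pairing. Only 1 pilot array exists here, so its ratios were not tested. Signal over background was not analysed here, so dim spots could not be told from bright ones.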
